A study of Mus musculus with 2 samples.

Results

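Mtch2, its relative Mtch1 and 8 genes that shape mitochondria or form channels in their outer membrane were followed across the cell classes of mouse colorectal tumours. The 10 genes (Mtch2, Mtch1, Mfn1, Mfn2, Opa1, Dnm1l, Fis1, Mff, Vdac1 and Vdac2) were taken as a list by symbol, each matched 1 row, and they are 10 of the 32285 genes in both count matrices. Tumours had been induced in all mice with the carcinogen azoxymethane and with dextran sulfate sodium, which injures the colon lining (AOM-DSS), and the labelled tissue is intestine. Fresh tumours of each genotype were pooled, dissociated with trypsin and made into 1 droplet library per genotype. The WT library came from Mtch2fl/fl mice, which carry floxed Mtch2 alleles and no Cre, so it is a floxed control. The cKO library came from Mtch2fl/fl VilCre mice, in which Cre recombinase is expressed from the Villin promoter, active in intestinal epithelial cells and not in immune or stromal cells. The age, sex and number of the pooled mice, and which exons are floxed, are not given in the labels used here.

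Mitochondria are reshaped by cycles of fusion and division. The mitofusins Mfn1 and Mfn2 fuse outer membranes and Opa1 fuses inner membranes and holds cristae together, whereas Dnm1l (DRP1) is the cytosolic dynamin that constricts mitochondria after receptors such as Mff recruit it to the outer membrane. Mtch2 and Mtch1 are carrier-like proteins of the outer membrane that insert other proteins into it, and Mtch2 is also known as a receptor for the apoptotic protein BID and as a regulator of mitochondrial metabolism and fusion. Vdac1 and Vdac2 are the pores through which metabolites cross that membrane.

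After filtering, 7249 WT and 4406 cKO cells remained, with medians of 3809 and 6959 unique molecular identifiers (UMIs, 1 per captured transcript). The 2 libraries were clustered jointly, leaving out the 10 genes, and clusters were named from marker lists. The epithelial-like class held 2911 WT and 1791 cKO cells in 8 clusters, with 92283640 and 70722474 UMIs. Epcam, a defining epithelial gene, stood at 2249 and 2264 UMIs per 1000000 UMIs of the class (CPM) there, and Ptprc, the pan-leukocyte gene, at 5.62 and 4.79 CPM. Cells in unnamed clusters, mostly of few UMIs, made up 42.1% of the kept WT and 18.5% of the kept cKO cells. The libraries shared 22 barcodes, 14 of them among kept cells. With 1 library per genotype no test was possible: each difference compares 2 libraries, and the 95% intervals express counting error alone, not mice or tumours.

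Mtch2 was the only one of the 10 genes that differed by more than 1.5-fold between the epithelial-like cells of the 2 libraries. It stood at 93.7 CPM (95% interval 91.7 to 95.7) in WT, from 8643 UMIs, and at 23.4 CPM (22.3 to 24.5) in cKO, from 1653 UMIs. The cKO level was therefore 4.01-fold lower, a log2 ratio of cKO over WT of -2.002 (-2.08 to -1.93). Among the 9393 genes that reached 10 CPM in a library and so counted as measured, 2.04% differed by 1.5-fold either way and 1.22% were lower and 0.82% higher by that much in cKO. A single gene had a lower ratio than Mtch2. It was the mast cell protease gene Cma1, named for this value, at 11.7 CPM in WT against 2.70 in cKO. The WT library held 130 and the cKO library 52 mast and basophil-like cells, and their part in the Cma1 value was not tested. Mtch2 UMIs remained in cKO, and because the floxed exons are not known, UMIs of transcripts that lost an exon cannot be told apart from those of intact ones.

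Mtch2 (ENSMUSG00000027282) lies on chromosome 2, from 90847155 to 90866810 on the plus strand of GRCm38. The 4 measured genes within 100 kb of it, chosen by position after the Mtch2 values were seen, differed by less than 1.5-fold. Ndufs3, a subunit of respiratory complex I that lies downstream, stood at 82.2 CPM in WT against 86.8 in cKO. Ptpmt1, a mitochondrial phosphatase, stood at 59.0 and 60.1 CPM, and Celf1, which binds RNA, at 177 and 167 CPM. On the other side Fnbp4 stood at 61.8 and 55.4 CPM. The lowest of these neighbours, Fnbp4, kept 89.6% of its WT level.

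**Figure D1:**
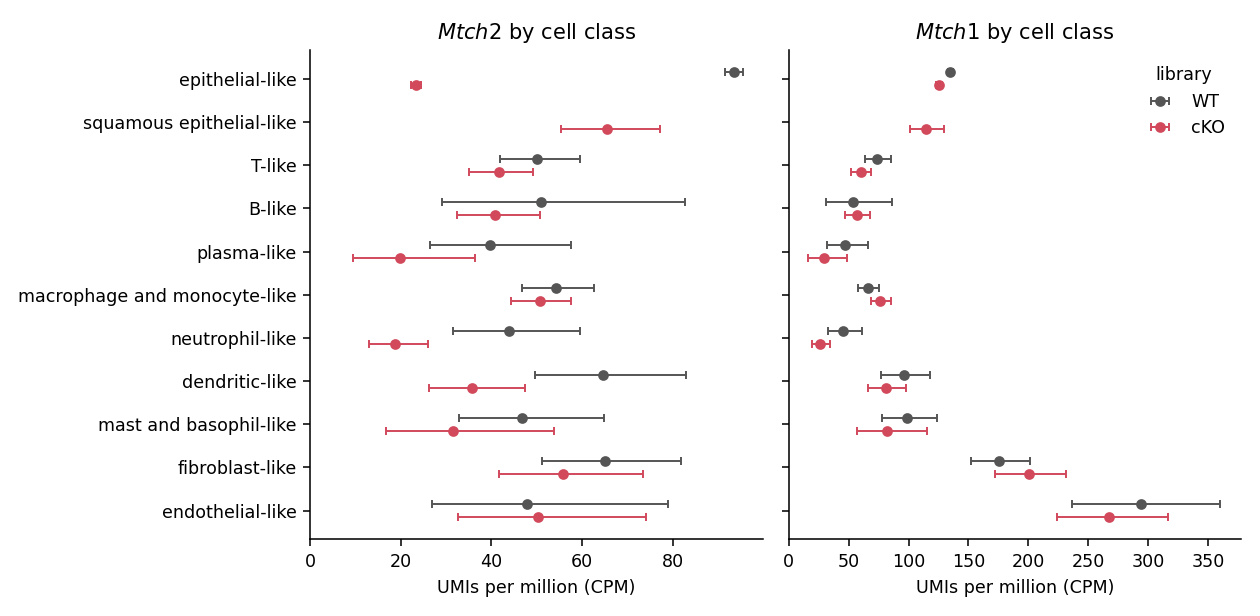
Levels of Mtch2 (left) and Mtch1 (right) in UMIs per 1000000 (CPM), by cell class, in the WT (grey) and cKO (red) library; points are levels from summed UMIs and bars are exact 95% Poisson intervals. Mtch2 in epithelial-like cells stands at 93.7 in WT and 23.4 in cKO, whereas Mtch1 is highest in endothelial-like cells of both libraries.

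Across the cell classes of the WT library, Mtch2 was highest in epithelial-like cells. Fibroblast-like cells followed at 65.2 CPM (51.2 to 81.8), a level that holds the largest epithelial share given below, dendritic-like cells at 64.7 CPM (49.6 to 82.9) and macrophage and monocyte-like cells at 54.3 CPM (46.8 to 62.6). The B-like, T-like, endothelial-like, mast and basophil-like, neutrophil-like and plasma-like cells lay between 50.9 and 39.8 CPM. The interval of the epithelial-like class lay above all the others, and the intervals of neighbouring classes in this order overlapped. In the cKO library the order was different. Epithelial-like cells lay near its lower end, and only plasma-like cells, at 19.8 CPM from 10 UMIs, and neutrophil-like cells, at 18.6 CPM from 35 UMIs, were lower.

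The squamous epithelial-like cells, a stratified type with keratins such as Krt5 that was seen in the cKO library alone, had the highest cKO level of Mtch2. Their 63 cells held 145 Mtch2 UMIs, a level of 65.6 CPM (55.4 to 77.2), and lay above the interval of the epithelial-like class of the same library. Vil1, the gene whose promoter drives Cre, stood at 15.4 CPM in them, against 144 CPM in the epithelial-like cells of that library. In its immune and stromal classes Vil1 stood between 3.95 CPM (plasma-like) and 30.5 CPM (dendritic-like). The squamous value lies within that range and so does not show that these cells express Vil1. Epcam stood at 557 CPM in the squamous cells. With no squamous cells in WT, whether Mtch2 differed by genotype there cannot be told.

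T-like and macrophage and monocyte-like cells, in which the Villin promoter is not active, showed smaller differences in Mtch2. T-like cells, which include a cluster with natural killer markers, stood at 50.1 CPM in WT against 41.6 in cKO, giving a log2 ratio of -0.27 (-0.62 to 0.09). When single cells were gated by markers instead, the T-like ratio was -0.59, just past 1.5-fold. Macrophage and monocyte-like cells stood at 54.3 against 50.6 CPM, a ratio of -0.10 on the log2 scale (-0.39 to 0.19). In fibroblast-like cells the levels were 65.2 and 55.9 CPM, and in endothelial-like cells 47.9 and 50.2 CPM, again with intervals that overlapped. Neutrophil-like cells differed more, at 44.0 CPM in WT against 18.6 in cKO, giving a log2 ratio of -1.24 (-1.93 to -0.55) from 41 and 35 UMIs. Of all genes measured in them 29% were lower by 1.5-fold, with a median of -0.30, and Mtch1 stood at -0.79. Lower levels were thus not particular to Mtch2 there. Dendritic-like cells, of 57 and 75 cells, were also lower in Mtch2, at 64.7 against 35.7 CPM, a ratio of -0.85 on the log2 scale (-1.43 to -0.29). The share of all genes was not taken for them.

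Epithelial transcripts were present in all these other classes, and more of them in WT than in cKO. The 10 epithelial markers summed to 12.2% of their epithelial-like level in WT T-like cells and 8.22% in cKO, to 9.10% and 6.53% in macrophage and monocyte-like cells, to 22.2% and 13.4% in neutrophil-like cells, and to 19.4% and 16.6% in dendritic-like cells. None of the 10 markers was at 0 in any of these classes. Subtracting that share of the epithelial-like Mtch2 level, a calculation chosen after the data were seen, left T-like cells at 38.7 CPM in WT against 39.7 in cKO. The macrophage and monocyte-like levels left were 45.7 and 49.1 CPM. Neutrophil-like cells were left at 23.2 against 15.5 CPM, a ratio of -0.58 on the log2 scale. Dendritic-like cells were left at 46.5 against 31.8 CPM, a ratio of -0.55 on the log2 scale. The levels left still refer to all UMIs of the class and were not rescaled to those that remained. The share removed was larger in WT, so this raises the ratios of cKO over WT in all these classes. Whether the neutrophil-like and dendritic-like ratios lie within 1.5-fold thus cannot be read from them. Nor can the direction in T-like cells, whose levels left lie close together. In WT neutrophil-like cells the subtraction took Mfn1, Dnm1l and Vdac1 below 0, so it removed too much for those genes there. The marker gate moved the neutrophil-like Mtch2 ratio the other way, from -1.24 to -1.85.

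Fibroblast-like cells held more epithelial transcripts than the classes above, at 39.2% of the epithelial-like marker level in WT and 13.6% in cKO. Subtracting that share left 28.4 CPM of Mtch2 in WT and 52.7 CPM in cKO. The second place of WT fibroblast-like cells was lost with it, and the direction between the libraries turned. These levels were not rescaled either. With shares so unlike, that raises cKO over WT, so the size of the turn cannot be read from them.

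Within the epithelial-like class, Mtch2 was lower in the cKO library in each of the 8 clusters, with every interval of the ratio below 0. Of all measured genes 4.36% were lower in every cluster, and 0.415% were so and also past 1.5-fold in the whole class. The clusters are numbered here and described by their leading genes. Over all cells Mtch2 was nearest to its WT level in cluster 8 and in the Lgr5-expressing cluster 2, and farthest from it in the Krt20-expressing cluster 3. The first of these places moved with the sex of the cells, whose assignment is given below. Among cells assigned male, cluster 8 stood at a log2 ratio of -2.17 and cluster 11 was nearest, at -1.64. Among cells assigned female, Mtch2 in cluster 8 stood at 56.4 against 71.4 CPM, a ratio of 0.36 on the log2 scale (-0.73 to 1.36) from 23 and 14 UMIs and so higher in cKO, and cluster 11 stood at -0.29 (-1.16 to 0.45).

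**Figure D2:**
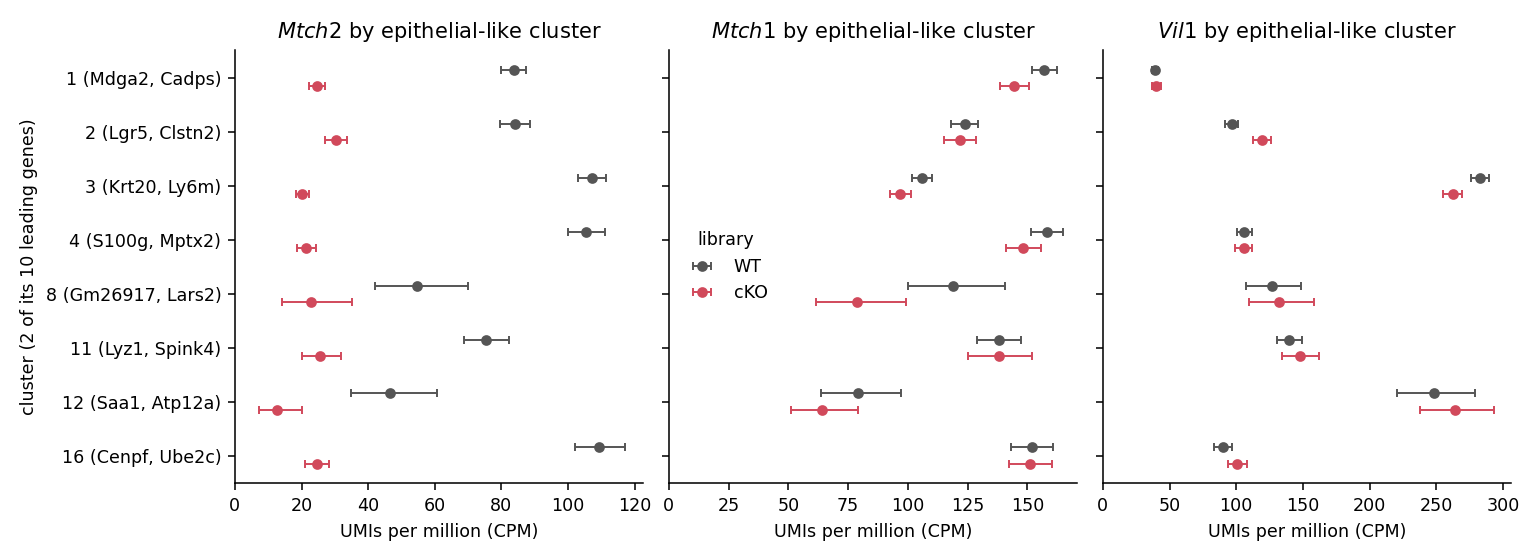
Levels of Mtch2, Mtch1 and Vil1 in UMIs per 1000000 (CPM) in the 8 epithelial-like clusters of the WT (grey) and cKO (red) library, with exact 95% Poisson intervals; 2 leading genes stand beside each cluster number. Mtch2 in cKO lies between 12.6 and 30.2 and below WT in every cluster, while Vil1 ranges widely in both libraries.

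Cluster 3, led by Krt20, Gsdmc4 and Lypd8, genes of surface colonocytes, stood at 107 CPM of Mtch2 in WT against 20.2 CPM in cKO, giving a log2 ratio of -2.41 (-2.56 to -2.26). Cluster 4, with S100g and Mptx2, stood at 105 against 21.4 CPM, a ratio of -2.30 on the log2 scale. Its cells were shallower in WT, with medians of 7981 UMIs in WT and 44669 in cKO. The mitotic cluster 16, with Cenpf and Ube2c, had the highest WT level of the 8 clusters, 109 CPM, against 24.5 in cKO, and a log2 ratio of -2.15. The WT intervals of clusters 3, 4 and 16 overlapped.

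Clusters 1 and 2 had intermediate WT levels. Cluster 1, with Mdga2 and Cadps among its leading genes, stood at 83.6 against 24.5 CPM, a ratio of -1.77 on the log2 scale. Cluster 2, with Lgr5, the receptor gene of intestinal stem cells, and Clstn2, stood at 84.0 against 30.2 CPM, a ratio of -1.47 on the log2 scale (-1.66 to -1.30), and held the highest cKO level of the 8. Cluster 11, whose leading genes Lyz1, Defa24 and Spink4 belong to Paneth and goblet cells, stood at 75.3 against 25.4 CPM, a ratio of -1.56 on the log2 scale.

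The lowest WT levels were in clusters 8 and 12. Cluster 12, with the acute-phase gene Saa1 and Atp12a, stood at 46.5 CPM in WT from 53 UMIs against 12.6 CPM in cKO from 17 UMIs, giving a log2 ratio of -1.85 (-2.76 to -1.07). Cluster 8 stood at 54.8 against 23.0 CPM, a ratio of -1.23 on the log2 scale (-2.04 to -0.52). Its cells had medians of 3407 and 3320 UMIs, against 24926 and 34095 in the whole class. They were led by Gm26917, Peak1, Rmrp, Lars2, Cmss1 and Gm42418, among others, rather than by genes of an intestinal lineage. The quality of these cells was not tested, which limits what its values can show. WT levels therefore spanned 2.35-fold over the clusters.

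The level of Vil1 varied over the clusters as well. Vil1 in cKO ranged from 40.0 CPM in cluster 1 to 264 CPM in cluster 12. Across the 8 clusters, which come from the same 2 libraries, Pearson's r between the cKO Vil1 level and the Mtch2 log2 ratio was -0.17 and Spearman's rho -0.048. Between the cKO Vil1 level and the cKO Mtch2 level they were -0.57 and -0.50. The cKO level, unlike the ratio, also carries differences between clusters that are present in WT. Cluster 12, highest in cKO Vil1, was the lowest of the clusters for Mtch2 in WT as well, at 46.5 CPM. With 8 points from shared libraries, these values are a description only. Cluster 1, with the lowest Vil1, had a Mtch2 ratio of -1.77.

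Mtch2 UMIs were also counted cell by cell in the epithelial-like class. Cells with at least 10000 UMIs were thinned to that number, which kept 1842 WT and 1295 cKO cells and left out 1069 and 496 shallower ones. At that depth 42.6% of WT cells (40.3 to 44.9) and 78.9% of cKO cells (76.6 to 81.1) held no Mtch2 UMI. Cells with 1 UMI made up 34.3% and 18.0%, with 2 UMIs 15.9% and 2.70%, and with 3 or more 7.15% and 0.364%. The mean was 0.900 UMIs per cell in WT and 0.246 in cKO.

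**Figure D3:**
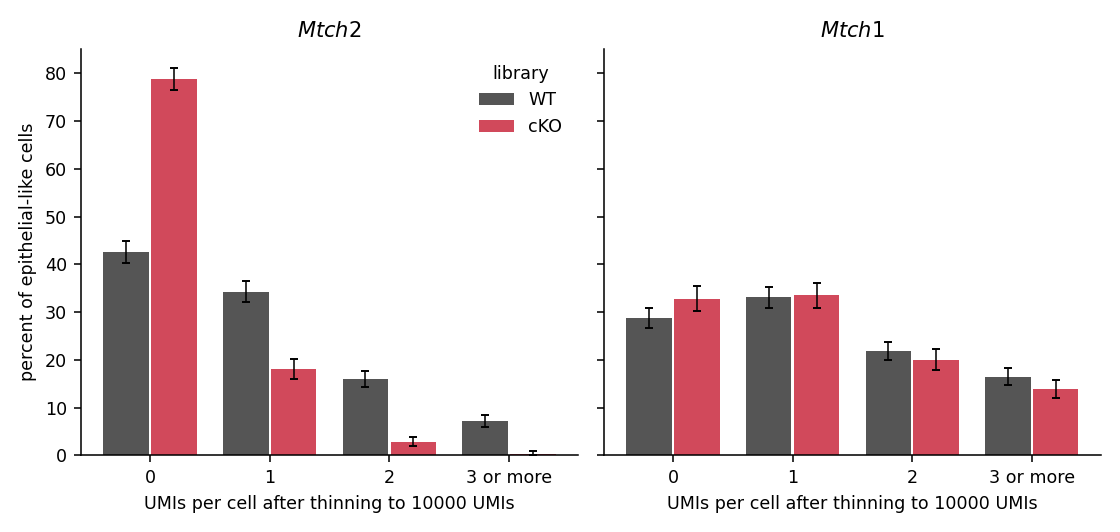
Percent of epithelial-like cells with 0, 1, 2 and 3 or more UMIs of Mtch2 (left) and Mtch1 (right) after thinning each cell to 10000 UMIs, in the WT (grey) and cKO (red) library, with exact 95% binomial intervals. The share with no Mtch2 UMI is 42.6% in WT and 78.9% in cKO, whereas the 2 libraries lie close to each other for Mtch1.

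The variance of Mtch2 UMIs over cells was 1.13 times the mean in WT and 1.12 times in cKO, where counting alone gives a value near 1. For Mtch1, which is not targeted, the same ratio was 1.21 in WT and 1.22 in cKO, at means of 1.35 and 1.22 UMIs per cell. The ratio depends on the mean, which differed between genes and libraries. These values therefore do not rank how evenly the UMIs were spread over cells. Without thinning, 88.9% of these WT cells and 62.0% of the cKO cells held a Mtch2 UMI, at medians of 39774 and 44666 UMIs per cell. Levels above 100 CPM occurred in 740 WT cells (40.2%) and in 33 cKO cells (2.55%). No named class lacked Mtch2, so no class gives a background share for it, and the part of free RNA in the cKO UMIs was not tested. As a measure of such RNA from other cells, markers of T, macrophage and monocyte, and neutrophil cells stood in the cKO epithelial-like class at 0.30%, 0.56% and 0.096% of the level in their own class. Thinned alike, 59.5% of WT and 69.1% of cKO T-like cells held none.

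The level of Mtch2 differed with the depth of the cells. In epithelial-like cells of at least 30000 UMIs it stood at 98.4 CPM in WT against 22.6 in cKO, and in those from 10000 up to 30000 UMIs at 76.2 and 29.9 CPM. In cells from 3000 up to 10000 UMIs it stood at 58.7 and 28.6 CPM, and in cells under 3000 UMIs at 50.4 and 16.2 CPM. The cKO level was lower in all 4 ranges, with log2 ratios of -2.12, -1.35, -1.03 and -1.56. In WT the level was higher in each deeper range, whereas in cKO it was highest in the range from 10000 up to 30000 UMIs and lower again in the deepest. The ranges hold different mixes of clusters.

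The pools held cells of both sexes, in unequal shares. By Xist and Y-linked UMIs, 885 WT and 275 cKO epithelial-like cells were assigned female, and 1067 and 1066 male. The other 959 WT and 450 cKO cells of the class were not assigned. Among cells assigned male, Mtch2 stood at 97.4 CPM in WT and 21.1 CPM (19.8 to 22.4) in cKO. Among cells assigned female it stood at 89.6 CPM in WT and 32.5 CPM (28.8 to 36.5) in cKO. The cKO intervals of the sexes did not overlap.

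Within the cKO library, the level in cells assigned female over that in cells assigned male had a log2 ratio of 0.63 (0.43 to 0.82). It was above 0 in 8 of 8 clusters, which come from the same pooled mice. Within the WT library that ratio was -0.12 (-0.20 to -0.042), above 0 in 1 of 8. The share of all measured genes that differed as much between these cells was not taken. In cKO clusters 4 and 12 the cells assigned female held only 4 and 2 Mtch2 UMIs. The cKO difference had intervals above 0 in clusters 2, 3 and 8. In cluster 2 it was 42.3 CPM from 115 UMIs in cells assigned female and 24.5 CPM from 125 UMIs in cells assigned male. In cluster 3 it was 24.5 and 17.1 CPM. In cluster 8 it was 71.4 and 11.2 CPM, from 14 and 4 UMIs. Sex stands for different mice in the pool, so that sex and the individual mouse cannot be told apart.

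Mtch1, the closest relative of Mtch2, was slightly lower in cKO than in WT in the epithelial-like class. Mtch1 (ENSMUSG00000024012, chromosome 17, 29332072 to 29347934, minus strand) stood at 135 CPM (133 to 137) among WT cells and at 125 CPM (123 to 128) among cKO cells of the epithelial-like class. The log2 ratio was -0.10 (-0.14 to -0.065), well within 1.5-fold. It was below 0 in 7 of 8 clusters, with intervals below 0 in clusters 1, 3 and 8. The clusters come from the same 2 libraries, and the share of all measured genes with such a count was not taken. The sign of the Mtch1 ratio was the same in all 13 alternative settings, from -0.15 to -0.064. In cells assigned female the levels were 132 and 119 CPM, and in cells assigned male 140 and 127 CPM, so that Mtch1 differed by a like amount in both.

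Across classes Mtch1 followed another order than Mtch2. Endothelial-like cells led with 294 CPM (237 to 360) in WT and with 267 CPM (224 to 317) in cKO, and fibroblast-like cells came next with 175 and 200.4 CPM. These intervals lay apart from each other within WT and above that of epithelial-like cells. Neutrophil-like cells were lowest, at 45.1 and 26.1 CPM. Among epithelial-like clusters it was highest in clusters 4, at 158 CPM in WT, and 1, at 157 CPM, and lower in cluster 3, at 106 CPM, in which Mtch2 was high.

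**Figure D4:**
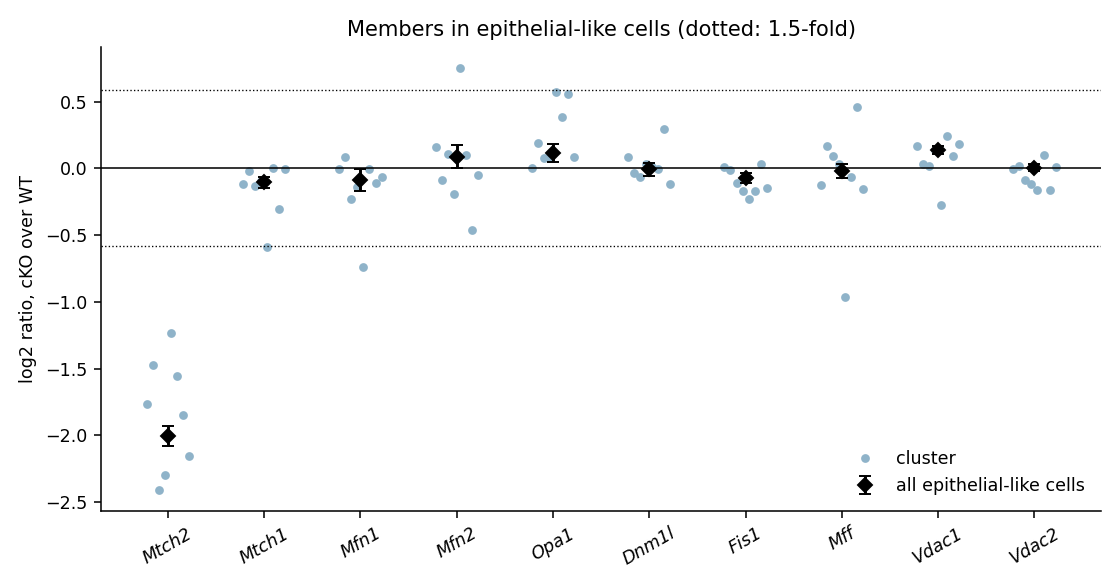
Log2 ratio of cKO over WT for the 10 genes in epithelial-like cells: black diamonds are the whole class with exact 95% intervals, blue points the 8 clusters, and dotted lines 1.5-fold. Mtch2 lies at -2.002 with all clusters below the lower line, and the other 9 genes lie between -0.10 and 0.14.

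The other 8 genes differed little between the epithelial-like cells of the libraries. Taken over all 10 genes, the median log2 ratio was -0.015, with 4 higher and 6 lower, and over all measured genes it was -0.020. Each was recomputed in 13 alternative settings of cell filters, scaling, weighting, cell calls and sex. Where a gene is given as higher or lower in fewer than 8 of 8 clusters, the share of all measured genes with that count was not taken.

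Of the fusion genes, Opa1 (ENSMUSG00000038084, chromosome 16, 29579334 to 29654884, plus strand) was slightly higher in cKO. It stood at 43.5 CPM (42.2 to 44.9) among WT cells and at 47.1 CPM (45.5 to 48.7) among cKO cells, with a log2 ratio of 0.11 (0.047 to 0.18), which turned to -0.010 in cells assigned male and was 0.29 in cells assigned female. It was above 0 in 8 of 8 clusters, where 2.76% of all measured genes were, but by only 0.0016 in cluster 1, and the interval lay above 0 in clusters 2 and 11 alone. The goblet and Paneth gene-expressing cluster 11 stood at 34.8 and 45.5 CPM.

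Mfn1 (ENSMUSG00000027668, chromosome 3, 32529465 to 32579239, plus strand) stood at 30.9 CPM in WT against 29.1 in cKO, giving a log2 ratio of -0.090 (-0.17 to -0.0080) that turned to 0.14 in cells assigned female. Its WT levels varied least over clusters of the 10 genes, from 27.2 to 36.8 CPM. Mfn2 (ENSMUSG00000029020, chromosome 4, 147873599 to 147904704, minus strand) stood at 26.8 against 28.5 CPM, a ratio of 0.087 on the log2 scale (0.00097 to 0.17), and turned below 0 in 3 of 13 settings. The 2 mitofusins, which can act in place of each other in fusion, thus had no direction that held in every setting.

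Mfn2 had the widest range over epithelial-like clusters, 3.72-fold in WT. Cluster 12 held 67.5 CPM in WT from 77 UMIs and 49.1 CPM in cKO from 66 UMIs, and the Krt20-expressing cluster 3 held 39.4 and 42.4 CPM. The remaining clusters lay between 18.2 and 25.5 CPM in WT. In cluster 12 most of the other genes, among them Mtch2, Mtch1, Opa1, Dnm1l, Fis1, Mff and Vdac1, were at their lowest WT level, whereas Mfn2 and Mfn1 were at their highest, Mfn1 at 36.8 CPM in WT against 34.2 in cKO. In cKO the same cluster was not the lowest for Dnm1l, at 79.6 CPM, or Mff, at 46.1 CPM.

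**Figure D5:**
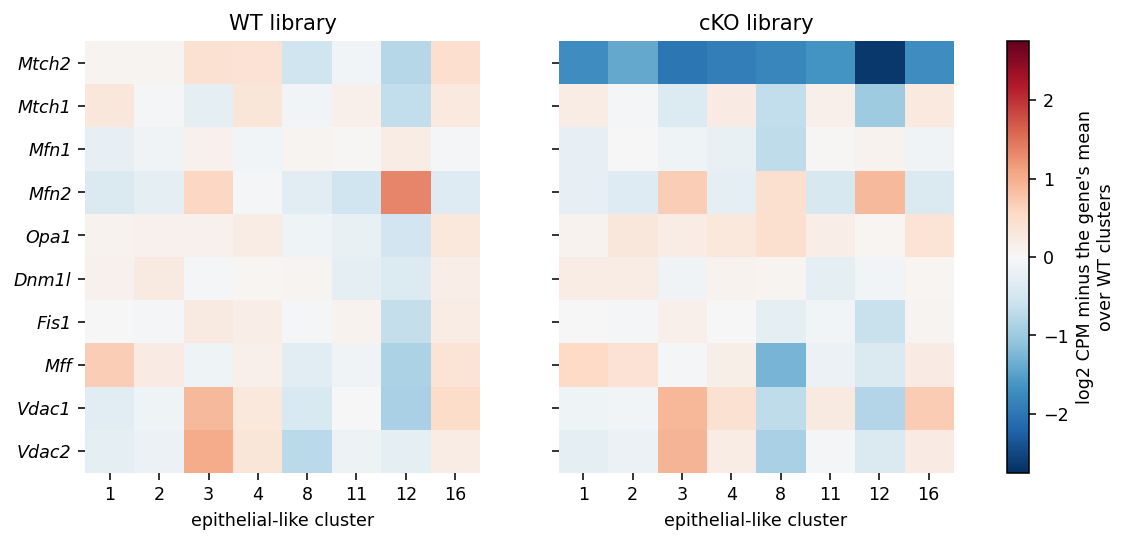
Log2 CPM of each of the 10 genes in each epithelial-like cluster minus the gene's mean over the WT clusters, for the WT (left) and cKO (right) library; red is above and blue below that mean. The Mtch2 row is blue throughout cKO, Mfn2 is highest in cluster 12 and Vdac1 and Vdac2 in cluster 3 of both libraries.

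The division genes were close to equal. Dnm1l (ENSMUSG00000022789, chromosome 16, 16312230 to 16358959, minus strand) stood at 88.3 CPM (86.4 to 90.3) among WT cells and at 87.9 CPM (85.7 to 90.1) among cKO cells, a log2 ratio of -0.0074 (-0.055 to 0.040) that had the other sign in 5 of 13 settings. Mff (ENSMUSG00000026150, chromosome 1, 82724890 to 82752394, plus strand) stood at 71.6 against 70.5 CPM, a ratio of -0.022 on the log2 scale (-0.075 to 0.031), with the other sign in 1 setting. Fis1 (ENSMUSG00000019054, chromosome 5, 136953275 to 136966234, plus strand), an outer membrane adaptor first linked to division, stood at 151 CPM (148 to 153) and 143 CPM (140 to 146). Its log2 ratio of -0.075 (-0.11 to -0.038) kept its sign in all 13 settings, from -0.13 to -0.034, and was below 0 in 6 of 8 clusters, 4 of them by their interval.

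Among clusters Mff was highest in cluster 1, with 96.5 CPM in WT against 88.5 in cKO, and lowest in WT in cluster 12, with 33.3 CPM. In cluster 8 it stood at 49.6 CPM in WT against 25.2 in cKO, from 58 and 23 UMIs, a log2 ratio of -0.96 (-1.74 to -0.26). Cluster 8 also held the only other values past 1.5-fold in a cluster, with Mtch1 at -0.59, Mfn1 at -0.74 and Mfn2 at 0.75. These rest on 18 to 139 UMIs per library, and the intervals of Mfn1 and Mfn2 included 0.

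Of the channel genes, Vdac1 (ENSMUSG00000020402, chromosome 11, 52360860 to 52389397, plus strand) was higher in cKO. It stood at 188 CPM (185 to 191) among WT cells and at 207 CPM (203 to 210) among cKO cells, with a log2 ratio of 0.14 (0.11 to 0.17), within 1.5-fold. It was above 0 in 7 of 8 clusters, 4 of them by their interval, and in all 13 settings, though at 0.019 in cells assigned female and 0.029 with each cell weighted equally. Vdac2 (ENSMUSG00000021771, chromosome 14, 21825238 to 21845879, plus strand), which holds the apoptotic effector BAK at the outer membrane, stood at 324 CPM in both libraries, a log2 ratio of 0.0043 (-0.021 to 0.029). Split by sex, the ratio was 0.28 for cells assigned female and -0.13 for those assigned male.

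Both channel genes were highest in the same epithelial-like cluster. In the Krt20-expressing cluster 3 Vdac1 stood at 285 CPM in WT against 289 in cKO, and Vdac2 at 529 and 497 CPM. In the stem gene-expressing cluster 2 they stood at 142 and 145 CPM and at 230.5 and 234 CPM. Neither of these clusters differed in Vdac1 beyond its interval between libraries, whereas Vdac2 in cluster 3 had a log2 ratio of -0.089 (-0.13 to -0.048).

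Among the other classes of the WT library the channel genes were lower than in epithelial-like cells. Vdac1 in WT was next highest in dendritic-like cells, at 104 CPM, whereas the squamous epithelial-like cells of cKO stood at 229 CPM (209 to 250), near the epithelial-like level of 207. Vdac2 stood at 208 CPM in those squamous cells, below the epithelial-like interval. Vdac2 was lower in cKO in T-like cells, at 139 and 105 CPM with a log2 ratio of -0.41 (-0.63 to -0.20), and in neutrophil-like cells, at 141 and 104 CPM. Plasma-like cells stood at 118 and 53.3 CPM, with a log2 ratio of -1.13 (-1.83 to -0.50) from 83 and 27 UMIs. They were 59 WT cells with a median of 2998 UMIs and 26 cKO cells with a median of 21246.5. Mast and basophil-like cells had a ratio of -0.67, fibroblast-like cells -0.45 and macrophage and monocyte-like cells -0.17, each with its interval below 0. In T-like cells epithelial markers were also lower in cKO, as given above, and subtracting the epithelial share left 100.02 and 77.9 CPM of Vdac2, a log2 ratio of -0.36. The same step left -0.19 in neutrophil-like, -1.002 in plasma-like, -0.84 in mast and basophil-like and -0.13 in macrophage and monocyte-like cells. It turned the ratio to 0.67 in fibroblast-like cells. The levels left were not rescaled, which raises all these ratios of cKO over WT, most of all in fibroblast-like cells, where the shares differed most. In cKO plasma-like cells it took Vdac1 to -2.50 CPM, so it removed too much for that gene there.

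Neutrophils are known for few mitochondria and a glycolytic metabolism. In neutrophil-like cells Opa1 was measured at 10.7 CPM in WT against 5.85 in cKO, Mfn1 at 5.36 and 6.38 CPM and Dnm1l at 15.02 and 11.7 CPM. T-like cells held 50.5 and 57.0 CPM, 24.5 and 21.6 CPM, and 89.7 and 77.4 CPM of the same 3 genes. Fis1, in contrast, stood at 124 and 121 CPM in neutrophil-like cells and at 125 and 110 CPM in T-like cells. Between libraries, 3 of the 8 genes measured in neutrophil-like cells were past 1.5-fold (Mtch2, Mtch1 and Opa1, all lower in cKO), where 33.4% of all measured genes were either way, 29% were lower and the median of all was -0.30. Subtracting the epithelial share left Opa1 at 1.05 CPM in WT and below 0 in cKO, Mfn1 at -1.51 and 2.49 CPM, and Dnm1l at -4.62 and -0.056 CPM, so that, apart from Opa1 in WT and Mfn1 in cKO, these levels lay below the epithelial share. Vdac1 was left at -3.18 and 8.50 CPM and Mtch1 at 15.1 and 9.28 CPM.

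In T-like cells 1 of the 10 genes, Mfn2, was past 1.5-fold, at 17.1 CPM in WT against 10.6 in cKO, giving a log2 ratio of -0.68 (-1.36 to -0.015) from 44 and 36 UMIs. Of all genes measured there, 10.1% were past it. In macrophage and monocyte-like cells none of the 10 was, against 12.8% of all genes measured. Shares of this size lie near or below those of all genes.

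Other genes of mitochondrial shape were taken from 4 lists of 79 genes in all, of which 65 were measured. None of the 65 differed by 1.5-fold in epithelial-like cells, where 2.04% of all measured genes did, so few would be counted at that share. In cKO, 30 of them stood above WT and 35 below, and their median log2 ratio was -0.0029, beside -0.020 for all measured genes. The split followed the scaling, since most ratios were close to 0. With median-of-ratios scaling 37 stood above and 28 below, and with a total that left out mitochondrially encoded, ribosomal, haemoglobin and immunoglobulin genes 44 stood above and 21 below. At the main scaling 4131 of the 9393 measured genes were higher. That count was not taken with the other scalings, which moved the median of all measured genes from -0.020 to 7.6e-05 and 0.020. The list counts with those scalings below thus have no matching share.

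Of the genes of fusion and inner membrane shape, 10 of the 18 measured had a higher and 8 a lower level in cKO, and the median ratio was 0.032. With either other scaling 14 were higher and 4 lower. The highest ratio was that of Phb, a prohibitin of the inner membrane scaffold, at 41.8 CPM in WT against 50.8 in cKO, and the lowest that of Afg3l2, a protease subunit of the inner membrane, at 71.6 and 64.8 CPM. Of the division factors, 4 of 11 measured were higher and 7 lower, which turned to 6 and 5 with median-of-ratios scaling and to 7 and 4 with the reduced total. Spire1, an actin nucleator with a mitochondrial form, was lowest at 28.6 against 20.3 CPM, a ratio of -0.49 on the log2 scale (-0.59 to -0.40), and Bcap31, an endoplasmic reticulum protein that contacts mitochondria, was highest at 140 and 156 CPM.

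Outer membrane import and insertion genes were higher in 13 of 20 measured and lower in 7, with a median of 0.061. Of all measured genes, 4131 of 9393 were higher. With the reduced total 17 were higher and 3 lower, for which no share of all genes was taken. Tomm5, a small subunit of the import pore, stood at 121 against 142 CPM, a ratio of 0.24 on the log2 scale (0.20 to 0.27), and Maoa, which oxidises monoamines at the outer membrane, at 186 against 156 CPM, a ratio of -0.25 on the log2 scale.

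Transport and mitophagy genes were lower in 13 of 16 measured, with a median of -0.060, in 12 with median-of-ratios scaling and in 10 with the reduced total. Of all measured genes, 5262 of 9393 were lower. Optn, a receptor that links damaged mitochondria to autophagosomes, was lowest at 134 CPM (131 to 136) among WT cells and at 100.3 CPM (98.0 to 103) among cKO cells, with a log2 ratio of -0.41 (-0.46 to -0.37), and it was lower in 8 of 8 clusters, as were 4.36% of all measured genes. Sqstm1, which encodes the autophagy adaptor p62, was also lower in 8 of 8, at 281 and 233 CPM, and is named here because of its values. Fundc1, a mitophagy receptor of the outer membrane, had the highest ratio, 0.066 (-0.029 to 0.16).

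The genes whose levels followed Mtch2 most closely were sought over 20 points, 10 classes in each library. Among 6049 genes with at least 20 CPM in at least 10 of the points, Pearson's r of log2(CPM + 1) was highest for E2f3 (0.70), Ckap5 (0.70), Cops8 (0.69), Otub1 (0.68) and Pom121 (0.68). It was 0.54 for Mtch1, 0.53 for Vdac1 and 0.51 for Vdac2. In the 10 WT points alone the order was different. There Vdac1 stood at 0.86 and Vdac2 at 0.81, above E2f3 (0.72), Ckap5 (0.47), Cops8 (0.61), Otub1 (0.76) and Pom121 (0.35). In the 18 points without epithelial-like cells, E2f3 stood at 0.85, Ckap5 at 0.86, Cops8 at 0.83, Otub1 at 0.82 and Pom121 at 0.80. Vdac1 stood at 0.75 and Vdac2 at 0.68 there, so the order depended on the epithelial points. The points share 2 libraries, their depths and the epithelial transcripts noted above, so these values describe the points only.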

How the data were processed

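The deposited matrices hold raw counts, the UMIs of each gene in each barcode, written by Cell Ranger 7.2.0, per the file headers. Per the submitters' processing notes, Cell Ranger, Seurat 3.0 and the build mm10 were used. The labels and headers do not state the authors' filters on cells or the end of the transcripts counted. The members, gene lists and marker lists were chosen with earlier results of these data known.

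WT had 9445 barcodes and 116066712 UMIs, cKO 6723 barcodes and 97364087 UMIs. Barcodes with fewer than 500 genes (905 and 1607), more than 25% mitochondrial UMIs (671 and 487) or the highest Scrublet doublet scores, at 0.8% per 1000 barcodes (714 and 362), were left out. Clustering in scanpy 1.11.5 used 2000 variable genes without the 10 members, 30 principal components, 20 neighbours and Leiden resolution 1 (leidenalg 0.10.2), and gave 29 clusters. A cluster took a class when the log2 level of its markers exceeded the mean of clusters by an average of 3 or more and led the next class by 2.5. It was epithelial-like when its epithelial markers were above that mean and no other class exceeded 1. Clusters of very few UMIs without own markers stayed unnamed. This rule was set after the clusters were seen, so names may differ from the authors'. A gate on single cells (at least 3 markers of a class, leading by 20% of the list) was an alternative, with 984 WT and 816 cKO cells near its lead. It gave the same class for 3288 of 3569 WT and 2717 of 2828 cKO cells that it placed and that lay in named clusters.

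UMIs were summed per class or cluster and library and scaled to 1000000. For log2 ratios, cKO over WT, 0.5 counts were added to each sum. Levels have exact Poisson and ratios exact conditional binomial 95% intervals (scipy 1.17.1). Genes reaching 10 CPM in a library counted as measured. A difference past 1.5-fold stands in for a call. Such counts were made only in classes with 100 cells or more in both libraries, and classes of 20 or more cells were described. Cells with Xist and no Y-linked UMI were assigned female, and the converse male. Of the matrices' genes, 32158 matched GENCODE release vM21 of GRCm38 by identifier. Named beside the members were, per list, the highest and lowest measured ratio and any gene past 1.5-fold, the 5 genes most correlated with Mtch2, and Vil1, Epcam and Ptprc. On simulated Poisson counts, for which these intervals are built, 95.4% of them held the true ratio. That checked the calculation only, since the simulation held no variation between cells or mice.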

Additional observations from a re-analysis of the deposited data

How the results depend on the processing

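Mtch2 stayed below its WT level in epithelial-like cells in all 14 alternative settings, with log2 ratios from -2.21 to -1.46. The value of -2.002 moved to -1.46 for cells assigned female alone, -2.21 for those assigned male, -1.68 when per-cell CPM were averaged and -1.87 when the 8 clusters weighed the same. Mtch2 was the 1 member past 1.5-fold in each setting run. The count of 0 list genes past 1.5-fold became 2 in cells assigned female (Bnip3 at -0.89 and Optn at -0.77), 1 in those assigned male (Spire1 at -0.78) and 1 when clusters weighed the same (Spire1 at -0.64); the cause was not tested. Of the 14 settings, 3 were chosen after seeing the data. They were leaving out the secretory cluster 11, leaving out clusters of under 10000 median UMIs, and adding cluster 6, left unnamed for its depth. In other classes the marker gate gave Mtch2 ratios of -0.59 in T-like, -1.85 in neutrophil-like and 0.15 in macrophage and monocyte-like cells. No setting moved the median of all measured genes beyond 0.051 from 0. No paired analysis was possible because each genotype has 1 library. Leaving out a replicate was not possible for the same reason. Counts of under 100 UMIs, as in most immune and stromal classes, leave intervals wider than the differences seen there for most of these genes.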

Other observations

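Barcodes that entered no named class repeated the difference in Mtch2. The largest unnamed cluster, cluster 0, held 2361 WT cells of 733 median UMIs and 462 cKO cells of 716, and its leading genes were Paneth-type defensins (Defa22, Defa24) and antibody light chains (Iglc2). Mtch2 stood there at 107 CPM (92.7 to 122) among WT cells and at 43.2 CPM (25.6 to 68.3) among cKO cells, and Mtch1 at 178 and 158 CPM. Cluster 13, led by Mptx2 and antibody genes, stood at 138 CPM of Mtch2 in WT against 29.3 in cKO, from 99 and 12 UMIs. Cluster 6, with Clca4a and Ceacam20, stood at 58.5 and 22.6 CPM, and there Mtch1 was lower too, at 69.3 against 47.5 CPM, a ratio of -0.53 on the log2 scale (-1.08 to -0.038). In cluster 23, of 49 WT and 17 cKO cells, Mtch2 had 46 and 0 UMIs, where 0 has an upper 95% Poisson limit of 40.1 CPM against 88.8 CPM in WT, and Mtch1 had 65 and 2. The barcodes that the filters removed, 2196 in WT and 2317 in cKO, stood at 65.8 and 23.6 CPM of Mtch2 and at 85.3 and 79.0 CPM of Mtch1.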
